A study of Danio rerio with 3 samples.

Results

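RBP4 and 7 other genes of vitamin A transport and metabolism were examined in muLECs, the mural lymphatic endothelial cells of the zebrafish brain. The 8 genes were every row of the count table whose symbol, ignoring case and a final a or b, was rbp4, ttr, stra6, rdh10, aldh1a2, aldh1a3 or cyp26b1, out of 32105 gene IDs. The symbol rdh10 belonged to 2 gene IDs, which the symbol table writes alike as RDH10, and they are told apart here by ID. The set was chosen with the level of RBP4 known, so the levels of the 8 genes are a description and carry no test.

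The cells came from brains of adult wildtype fish, were freed with the enzyme blend Liberase, and were collected by fluorescence sorting on a lyve1 DsRed reporter. They formed a single group of 3 libraries made from amplified RNA, each from a pool of 6 brains, and no other cell population was analysed here. The libraries held 36044297, 35168650 and 34307745 reads in genes in replicates 1, 2 and 3. Sex and sort day are not given in the labels, so the spread between libraries may be partly technical.

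Retinol, the alcohol form of vitamin A, travels bound to Rbp4, which in mammals is held in the circulation by transthyretin, the product of ttr. Stra6 takes retinol into cells, Rdh10 oxidises it to retinaldehyde, and enzymes of the Aldh1a family turn retinaldehyde into retinoic acid. Cyp26 enzymes break retinoic acid down, and the acid acts through nuclear receptors of the RAR and RXR families. In mammals the liver is the main source of circulating Rbp4, the choroid plexus makes much transthyretin, and meningeal fibroblasts are known for Aldh1a2.

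RBP4 was abundant and even across the libraries, while ALDH1A2 and 1 RDH10 copy were high in some libraries and nearly missing from others. The remaining 5 genes, TTR, STRA6, ALDH1A3, CYP26B1 and the other RDH10 copy, had at most 3 reads in any library. So had 53.2% of all gene IDs with a symbol. Levels are given in CPM, the reads of a gene relative to all reads of its library, scaled between libraries with edgeR's TMM factors, and 3 reads, taken as the floor, corresponded to 0.0794, 0.107 and 0.0729 CPM in replicates 1, 2 and 3. Reads were not adjusted for gene length here, so an order of genes by CPM is an order of reads and not of transcripts.

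**Figure D1:**
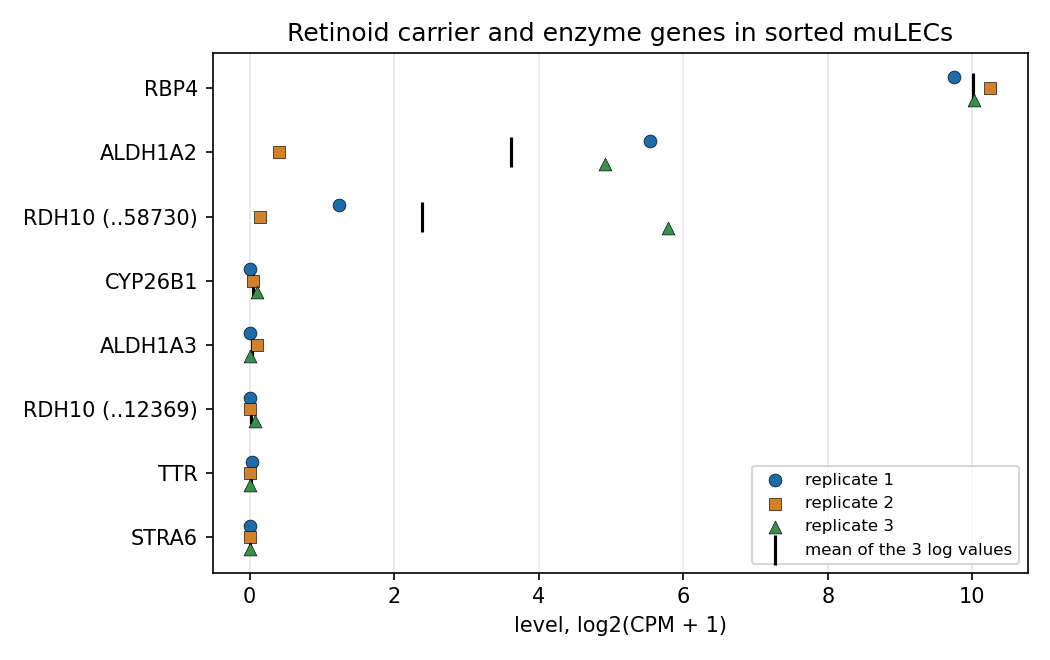
Level of each of the 8 genes in each library, as log2(CPM + 1) on the horizontal axis, with 1 symbol per replicate and a bar at the mean of the 3 log values. The digits after RDH10 are the end of the gene ID. The 3 RBP4 values lie close together far to the right, ALDH1A2 and RDH10 ENSDARG00000058730 are spread over most of the axis below them, and the other 5 genes sit at 0 or next to it.

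RBP4 (ENSDARG00000101199), the retinol carrier, had 32404, 34086 and 42711 reads in replicates 1, 2 and 3. These were 858, 1218 and 1038 CPM, a mean of 1038 CPM ± 180 (SD, n = 3). The highest library exceeded the lowest by 1.32 times in reads. Replicate 3 was highest in reads and replicate 2 in CPM, so the order of the libraries depended on the scaling.

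By reads, RBP4 ranked 83rd, 68th and 62nd of all genes in replicates 1, 2 and 3, and it took 0.104% ± 0.0183 of all reads (SD, n = 3). A filter of 10 reads in 2 or more libraries kept 7111 genes, of which 99.0% had a lower mean CPM. Its log2 ratio to the median of those genes was 6.40 ± 0.30 (SE), given without a test. In the YuGene scores that the authors deposited, which run from 0 to 1 within a library, RBP4 stood at 0.968, 0.969 and 0.980.

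With TMM scaling, the spread of RBP4 was small for its level. Its coefficient of variation was 0.173, against a median of 0.333 over the 124 genes, RBP4 among them, whose mean CPM lay within a factor of 2 of its own. Of those genes 13.7% had a smaller coefficient. This comparison was chosen after the values were seen and was made with TMM scaling only. The SD of RBP4 was 235 CPM at a mean of 1044 with DESeq2 size factors. It was 166 CPM at a mean of 1557 when malat1 and mitochondrially encoded genes were left out of the library size. Summed over 8 lymphatic markers, the level was 5205, 6955 and 5140 CPM in replicates 1, 2 and 3. Most of that sum was the mannose receptor gene MRC1, with 4289 of a mean of 5767 CPM, and the coefficient of variation was 0.0572 to 0.299 for 6 of the 8 genes but 0.984 for lyve1a and larger still for PROX1.

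The gene whose log2(CPM + 1) values over the 3 libraries lay nearest to those of RBP4 was the calmodulin gene calm3b, at a Euclidean distance of 0.22 and a level of 1104 CPM ± 288 (SD, n = 3). Then came the nucleic acid binding protein gene cnbpb at a distance of 0.28, the mitochondrially encoded ATP synthase gene MT-ATP6 at 0.39, the sodium pump subunit gene ATP1B1 at 0.54 and the transcription factor gene JDP2 at 0.56. With 3 libraries of 1 cell type, this likeness is mainly one of level.

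**Figure D2:**
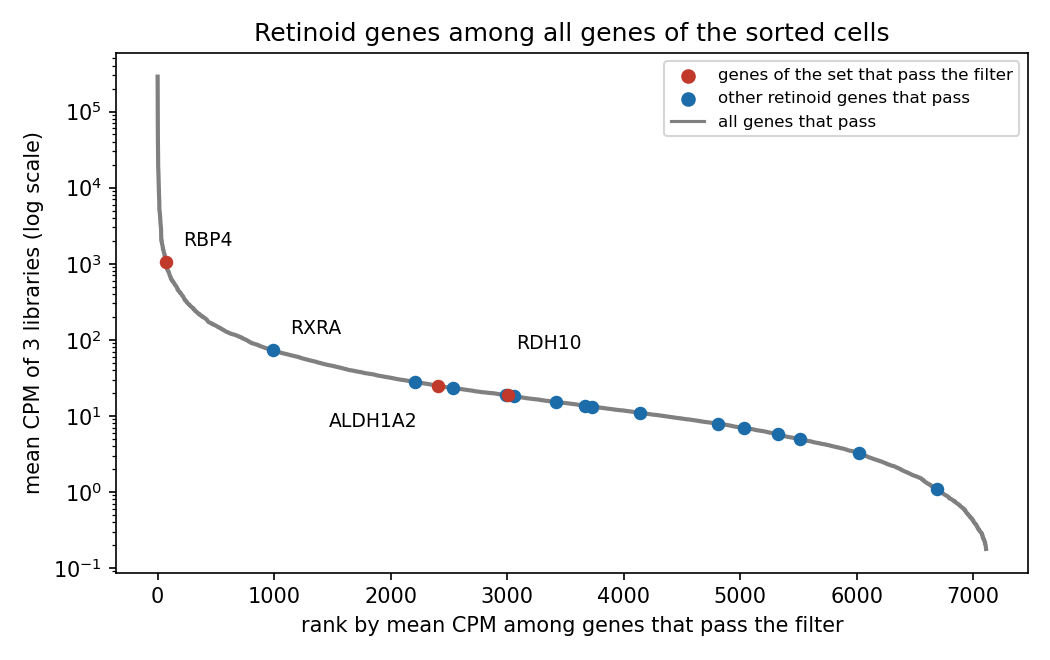
Mean CPM of the 3 libraries (log scale) against rank for the 7111 genes that pass the filter of 10 reads in 2 libraries, in grey, with the 3 passing genes of the set in red and the 15 passing genes of the wider retinoid list in blue. RBP4, at 1038 CPM, lies on the steep left end of the curve, RXRA follows at 72.5 CPM, and ALDH1A2 and RDH10 lie in the middle.

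The partners of Rbp4 in transport were not found above the floor. TTR (ENSDARG00000037191), the carrier that binds Rbp4 in mammals, had 1, 0 and 0 reads in replicates 1, 2 and 3. STRA6 (ENSDARG00000051874), the retinol importer, had 0 reads in every library. Expression below these limits was not detectable at this depth, and the floor covers counting error only. Of 3645 genes with at least 1000 reads in any library, 22.3% had 10 or fewer in another, so few reads do not set a firm upper limit. The related genes stra6l, named for its likeness to stra6, and rbp4l, named for its likeness to rbp4, also had 0 reads in all 3 libraries. Of all gene IDs with a symbol, 36.3% had 0 reads throughout and 53.2% had at most 3 in any library.

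Markers of the sources of Rbp4 and transthyretin known from mammals were mostly at or under the floor, as were 53.2% of all gene IDs with a symbol. Of 12 hepatocyte genes, 10 were at or under 3 reads in every library, or 83.3%. At 0 throughout were 8 of the 12, among them fabp10a, fga, FGB and FGG, and 36.3% of all gene IDs with a symbol. The exceptions were tfa, with 1, 0 and 112 reads, and the ceruloplasmin gene CP, which carries copper in plasma. CP had 28803, 48234 and 95066 reads, a level of 1599 CPM ± 782 (SD, n = 3), and other cell types are also known to express it. Of 10 choroid plexus and ependymal genes, 8 were at or under 3 reads in every library, or 80.0%, with KL, otx2a, OTX2 and foxj1b at 0. The other 2 were cfap126, at 41.9 CPM ± 42.4, and an IGFBP2 copy (ENSDARG00000052470), at 32.1 CPM ± 25.0. By edgeR's quasi-likelihood test CP, the 1 tested hepatocyte gene, stood above the median gene. So did cfap126, 1 of 2 tested genes of its list (edgeR adjusted p = 0.0462), and 23.4% of all tested genes. DESeq2 and limma-trend did not call cfap126 (adjusted p = 0.0620 and 0.118).

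Of the 2 RDH10 copies 1 was detected, and mainly in 1 library. RDH10 ENSDARG00000058730, a retinol dehydrogenase gene, had 51, 3 and 2234 reads, or 1.35, 0.107 and 54.3 CPM. Its mean of 18.6 CPM ± 30.9 (SD, n = 3) fell to 0.729 CPM without replicate 3. The second copy, ENSDARG00000012369, had 0, 0 and 2 reads. Reads split between the copies could not be checked, because the sources used here do not name the counting method.

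ALDH1A2 (ENSDARG00000053493), which makes retinoic acid, was present in replicates 1 and 3. It had 1724, 9 and 1196 reads, or 45.6, 0.322 and 29.1 CPM, a mean of 25.0 CPM ± 22.9 (SD, n = 3). Replicate 2 was lower than replicate 1 by 192 times in reads. Without replicate 1 the mean was 14.7 CPM. The other retinaldehyde dehydrogenase of the set, ALDH1A3 (ENSDARG00000076933), had 0, 2 and 0 reads.

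CYP26B1 (ENSDARG00000077121), which breaks down retinoic acid, had 0, 1 and 3 reads. Its relatives CYP26A1, with 0, 232 and 0 reads, and CYP26C1, with 0 in every library, were no more regular. The SD of ALDH1A2 was nearly as large as its mean and that of RDH10 ENSDARG00000058730 larger, and their order turned between replicate 1 and replicate 3. The means of these genes do not differ beyond their spread, while RBP4 exceeded both in all 3 libraries.

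Such gaps were common in these libraries. Of 3645 genes with at least 1000 reads in any library, 812, or 22.3%, had 10 or fewer in another. The narrower pattern of ALDH1A2, at least 1000 reads in 2 libraries and 10 or fewer in the third, held for only 70 of the 3645. Of the 70, 33 were low in replicate 2. The pattern of RDH10, at least 1000 reads in 1 library and under 100 in both others, held for 346 of the 3645. Of the 346, 148 were high in replicate 3. At least 10 reads were found for 7472, 6117 and 9739 genes in replicates 1, 2 and 3. In a bulk library of amplified RNA, fewer cells of a type, less RNA per cell and uneven amplification cannot be told apart.

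Fibroblast and meningeal markers varied beside ALDH1A2 and RDH10. The receptor gene PDGFRA was the highest of them, at 38.8 CPM ± 12.6 (SD, n = 3), with 1290, 818 and 2185 reads. SLC13A4, a sulfate transporter gene of the meninges in mammals, had 688, 8 and 2917 reads. The transcription factor gene foxc1b had 232, 8 and 134 reads and FOXC1 had 53, 1 and 85, so all 3 were lowest in replicate 2, as ALDH1A2 and RDH10 were. The collagen gene COL1A2, with 88, 644 and 202 reads, and the matrix gene DCN, with 204, 1005 and 952, were instead highest in replicate 2.

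Over the whole list of 12 fibroblast genes, 8 passed the filter, of which 5 were lowest in replicate 2 and 3 in replicate 1. Tested with edgeR's quasi-likelihood test against the median gene, 1 of the 8 stood above it, where 23.4% of all tested genes did, and 1 stood below, where 1.24% did. PDGFRA exceeded the median gene by 1.65 on the log2 scale (edgeR adjusted p = 0.0318). The call was lost without replicate 1, at 0.96 (edgeR adjusted p = 0.391), and without replicate 3, at 0.22 (edgeR adjusted p = 0.930). Those fits kept fewer genes, 5065 and 4444, and took their own median as the reference. ZIC1, with 15, 3 and 20 reads, lay below the median gene at -5.24 (edgeR adjusted p = 0.0283). DESeq2 did not call it (adjusted p = 0.174), but called 0 of all 7111 genes below. With limma-trend ZIC1 was called below (adjusted p = 2.03e-29), as were the collagen gene col1a1a (adjusted p = 3.61e-18) and FOXC1 (adjusted p = 1.13e-05). Of all genes 14.7% were called below by limma-trend. Of all 7111 genes that passed, 41.3% were lowest in replicate 2. The summed level of the list was 70.0, 90.2 and 165 CPM in replicates 1, 2 and 3, and LUM and TBX18 had at most 1 read in any library. The part of these cells in the levels of ALDH1A2 and RDH10 was not tested.

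**Figure D3:**
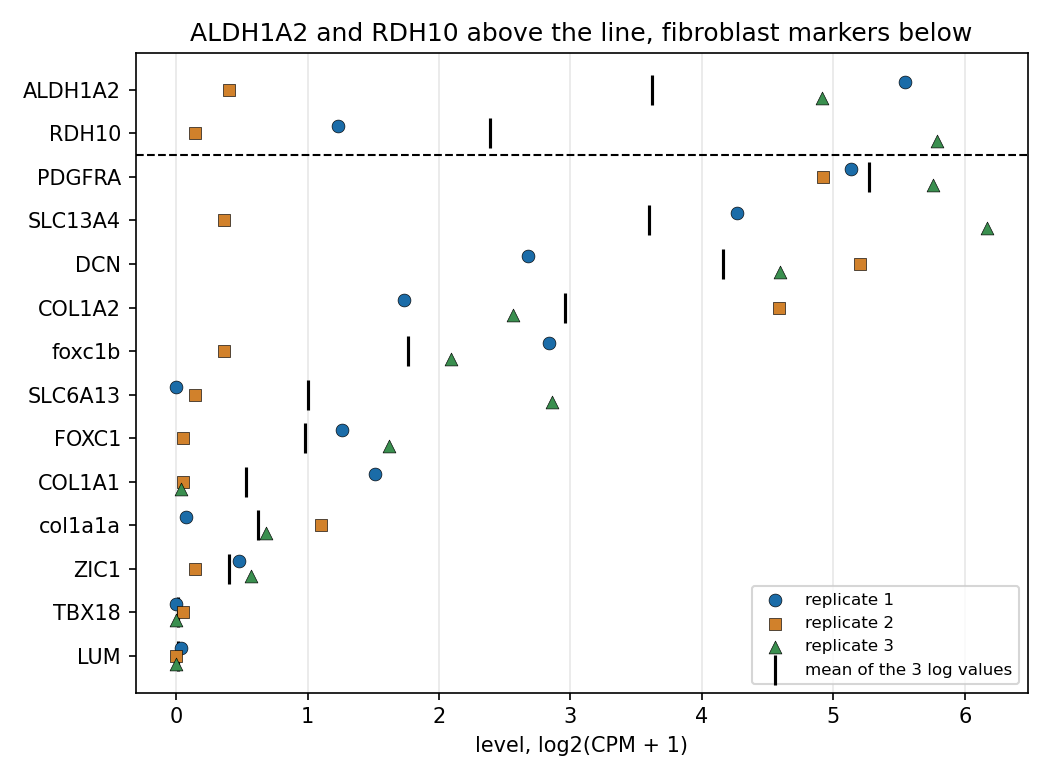
Level of ALDH1A2 and RDH10 ENSDARG00000058730, above the dashed line, and of the 12 fibroblast and meningeal markers, below it, as log2(CPM + 1) in each library, with a bar at the mean of the 3 log values. Replicate 2, drawn as squares, lies to the left of the other libraries for ALDH1A2, SLC13A4 and foxc1b, and to their right for DCN and COL1A2. For RDH10 replicates 1 and 2 both lie to the left and replicate 3 far to the right.

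A wider list of retinoid genes, which holds none of the 8, asked whether other steps of the pathway were present. Its 72 gene IDs covered carotenoid cleavage, carriers, storage, oxidation and reduction, receptors and genes known to respond to retinoic acid. Of these, 15 passed the filter, or 20.8%, against 25.8% of all gene IDs with a symbol. At or under 3 reads in every library were 36 of them, or 50.0%, against 53.2% of all gene IDs with a symbol. At 0 reads throughout were 24 of the 72, and 36.3% of all gene IDs with a symbol.

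Each passing gene was tested against the median gene with edgeR's quasi-likelihood test and Benjamini-Hochberg adjustment over all 7111 genes. Of the 15, only RXRA stood above the median gene at an adjusted p under 0.05. Over all tested genes 23.4% stood above and 1.24% below. None of the 15 stood below by edgeR, with 0 at an unadjusted p under 0.05. DESeq2 called 0 of the 15 below, but also 0 of all 7111 genes, of which 75 had an unadjusted p under 0.05. With limma-trend 1 of the 15, RARG, stood below, against 14.7% of all genes. The median log2 ratio of the 15 to the median gene was 0.06. A ratio of 0 stands for the median count of each library, and the median ratio over all genes is not given here.

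Of the retinoid receptors, RXRA and raraa were well detected in every library. RXRA (ENSDARG00000057737), a partner receptor that pairs with RAR and with other nuclear receptors, had 2247, 3674 and 1104 reads, or 59.5, 131 and 26.8 CPM. Its mean was 72.5 CPM ± 53.4 (SD, n = 3) and 43.2 CPM without replicate 2. It stood above the median gene in 3 of 3 libraries, by 2.59 ± 0.54 on the log2 scale (SE), with an adjusted p of 0.000179 (edgeR). The ratio was smaller when 1 library was left out, at 1.67 without replicate 1, 1.32 without replicate 2 and 1.75 without replicate 3. Those fits kept 5065, 5818 and 4444 genes, with 10 reads in both remaining libraries, and their median was the reference. The ratio of the lymphatic gene MRC1 fell as well, from 8.45 to 7.63, 7.79 and 7.36, so these ratios do not share the reference of 2.59. Keeping only the 4108 genes with 10 reads in all 3 libraries, again with their own median, lost the RXRA call. The log2 ratio was then 1.26 and the adjusted p 0.0588 (edgeR).

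The retinoic acid receptor gene raraa had 1345, 628 and 1075 reads, a level of 28.1 CPM ± 6.79 (SD, n = 3). Its log2 ratio to the median gene, 1.18 ± 0.78 (SE), missed the threshold (edgeR adjusted p = 0.302). A RARG copy (ENSDARG00000034117) had 2, 16 and 107 reads and also missed it, at -3.54 ± 1.45 (edgeR adjusted p = 0.303). Of the 10 receptor genes 5, or 50.0%, were at or under 3 reads in every library, against 53.2% of all gene IDs with a symbol. These were the second copies of RARG and RXRA, RXRB, rxrbb and rxrgb. The last 2, rarab and rxrga, had 49 and 410 reads in replicate 3 and at most 1 in the others.

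**Figure D4:**
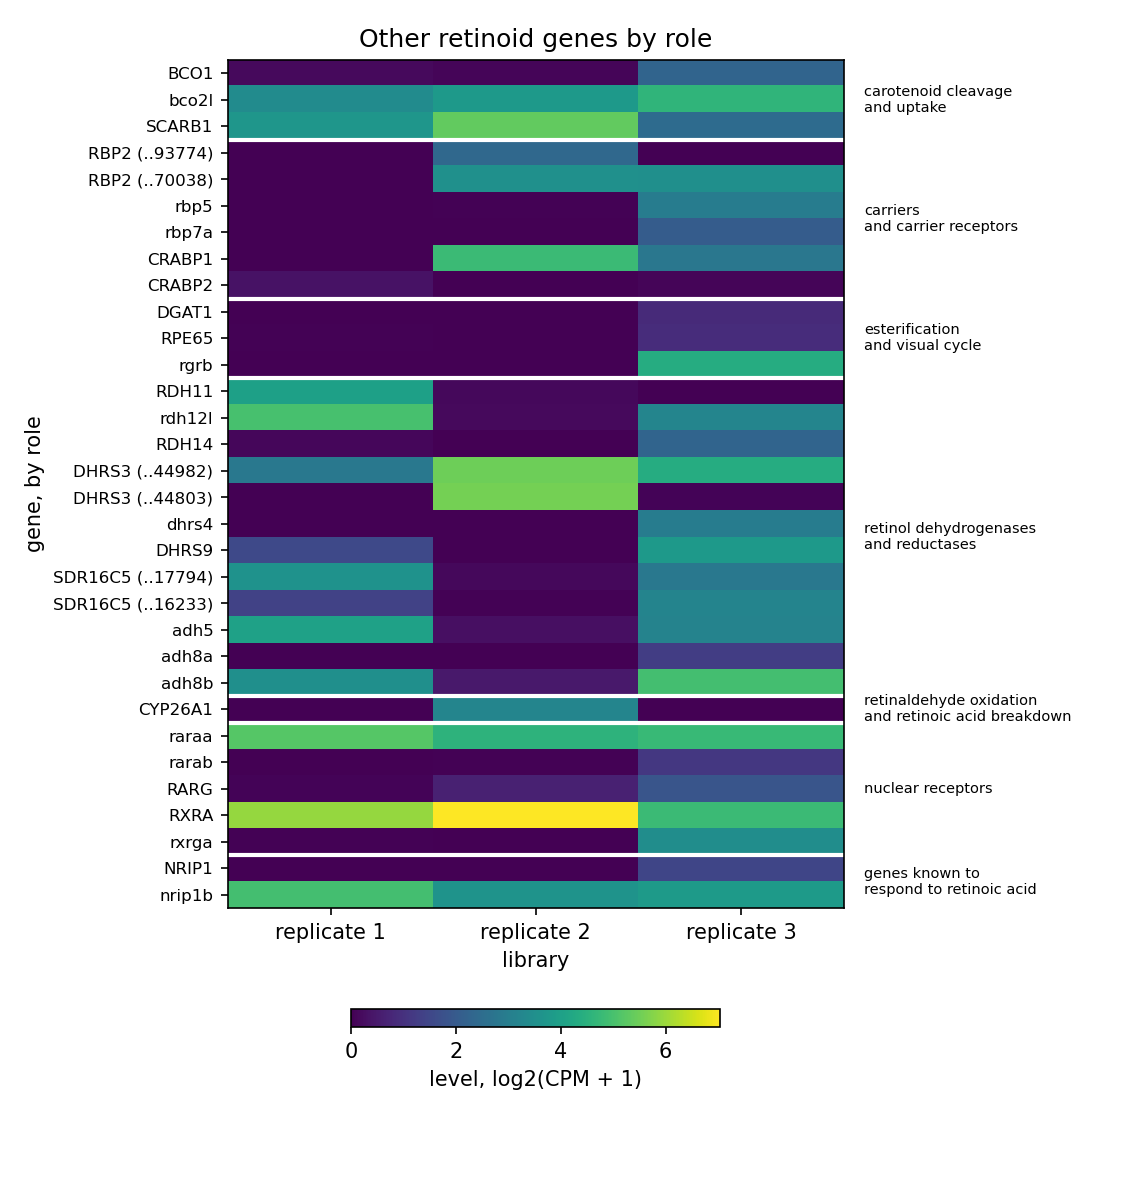
Level as log2(CPM + 1), by colour, of all but 1 of the genes of the wider retinoid list with at least 10 reads in any library, grouped by role, in the 3 libraries. Digits after a symbol are the end of the gene ID where copies share it. RXRA, raraa, nrip1b, bco2l, SCARB1 and a DHRS3 copy are coloured in all 3 columns, while most other rows are dark in at least 1.

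Among the dehydrogenases and reductases, 7 of 19 genes passed the filter, or 36.8%, against 25.8% of all gene IDs with a symbol. By edgeR 0 stood above or below the median gene, with 0 at an unadjusted p under 0.05. Of all tested genes 23.4% stood above and 1.24% below. DESeq2 and limma-trend also called 0 of them. A DHRS3 copy (ENSDARG00000044982), a reductase that turns retinaldehyde back into retinol, was the highest, with 227, 1238 and 800 reads and 23.2 CPM ± 19.4 (SD, n = 3). Its other copy, ENSDARG00000044803, had 0, 1313 and 2 reads. The remaining 6 passing genes, rdh12l, DHRS9, both SDR16C5 copies, adh5 and adh8b, were all lowest in replicate 2, with 0 to 11 reads there. Of all 7111 tested genes 41.3% were lowest in that library. A gene with fewer than 10 reads in 1 library passes the filter only if the others both reach 10, whichever library that is. The part of the filter in this pattern was not tested. ALDH1A2 and RDH10 also had their lowest counts in replicate 2, and the part of that library's lower number of detected genes was not tested.

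Carriers inside cells were patchy. CRABP1 (ENSDARG00000035904), which binds retinoic acid, had 0, 759 and 242 reads, and an RBP2 copy (ENSDARG00000070038), a retinol binding protein gene, had 0, 294 and 424. Neither passed the test (adjusted p = 0.988 and 0.908, edgeR). The related gene rbp5 had 0, 1 and 278 reads. All 15 genes of carriers and carrier receptors together came to 0.503, 57.1 and 26.3 CPM in replicates 1, 2 and 3.

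Genes of retinol storage were at or near the floor. LRAT, lratb.1 and lratb.2, which encode the enzyme that esterifies retinol, had 0 reads in all 3 libraries. Of the 10 genes of storage and the visual cycle 0 passed the filter, against 25.8% of all gene IDs with a symbol. At 0 reads throughout were 5 of the 10, against 36.3%. The opsin-like gene rgrb of the visual cycle had 0, 0 and 806 reads. A copy of the pigment gene TYRP1 (ENSDARG00000056151) likewise had 0, 1 and 758 reads, while 8 of the 10 pigment cell markers were at or under 3 reads in every library, against the 53.2% of all gene IDs with a symbol, and DCT, TYR and pmela were at 0. The part of pigment cells was not tested.

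Of 6 genes of carotenoid uptake and cleavage 2 passed the filter, or 33.3%, against 25.8% of all gene IDs with a symbol. SCARB1, a lipid and carotenoid receptor, had 450, 1118 and 184 reads, at 18.8 CPM ± 18.7 (SD, n = 3), and bco2l had 361, 358 and 955, at 15.2 CPM ± 7.14. Neither passed the test (adjusted p = 0.842 and 0.945, edgeR). BCO1, which cleaves carotene to retinaldehyde, had 5, 2 and 159 reads.

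Of 9 genes listed as known to respond to retinoic acid, 7 were at or under 3 reads in every library, or 77.8% against 53.2% of all gene IDs with a symbol. A gene listed under another role, such as DHRS3 or CYP26A1, was not counted here, whether or not it responds to retinoic acid. Among them were hoxb1a, hoxb1b and both copies each of HOXB5 and TGM2. The corepressor gene nrip1b had 1118, 317 and 543 reads, at 18.0 CPM ± 10.1 (SD, n = 3), and did not pass the test (adjusted p = 0.866, edgeR). NRIP1 had 0, 0 and 74 reads.

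The label of the cells was set beside markers, whose lists were chosen with earlier results of these data known. The comparison is therefore no independent check of the label. All 8 lymphatic genes passed the filter, against 25.8% of all gene IDs with a symbol, and 6 stood above the median gene by edgeR, against 23.4% of all tested genes. They were led by MRC1 at 4289 CPM ± 891 (SD, n = 3). Of the 6, NR2F2 was lost without replicate 3 (edgeR adjusted p = 0.128), against the median of the genes kept in that fit. PROX1 and lyve1a did not pass the test, with 614, 1213 and 1 and with 0, 976 and 754 reads. The related gene lyve1b, which is in no list and was chosen after its values were seen, had 24766, 14590 and 26265 reads, at 605 CPM ± 73.2 (SD, n = 3).

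Markers of other brain cells were present as well. Of the tested genes, 3 of 4 for oligodendrocytes and 3 of 4 for macrophages and microglia stood above the median gene by edgeR. The share of tested genes was the same for the lymphatic list. Fewer genes of these lists were tested, however, 4 of 7 and 4 of 9, against 8 of 8 lymphatic genes. For pericytes and smooth muscle 2 of 10 were tested and both stood above, RGS5 and a TAGLN copy (ENSDARG00000033466) at 210 CPM. For radial glia 1 of 3 tested genes stood above, for blood endothelium 1 of 3 and for neurons 0 of 6, from lists of 9, 10 and 9 genes. Of all tested genes 23.4% stood above. The calls of mbpb for oligodendrocytes, cd74b for macrophages and microglia and dll4 for blood endothelium were lost without replicate 3. Their edgeR adjusted p was then 0.353, 0.362 and 0.102, against that fit's own median gene. Without replicate 2 mbpb was lost as well (edgeR adjusted p = 0.517). With limma-trend mbpb and cd74b were not called (adjusted p = 0.699 and 0.513). The highest gene of each list was the myelin gene mbpa at 1122 CPM, the apolipoprotein gene apoeb at 1360 CPM, RGS5 of pericytes at 273 CPM, a FABP7 copy (ENSDARG00000007697) of radial glia at 140 CPM and the Notch ligand gene dll4 of blood endothelium at 71.0 CPM. Of the other genes of these lists and the neuron list, OLIG2, LCP1, PDGFRB, GFAP, kdrl, cdh5 and ELAVL3 were among those that had at most 3 reads in any library. So had 53.2% of all gene IDs with a symbol.

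Summed levels ran from 674 to 2391 CPM for oligodendrocytes, 1035 to 3311 CPM for macrophages and microglia, 150 to 927 CPM for pericytes and smooth muscle, 83.2 to 127 CPM for blood endothelium, 50.7 to 339 CPM for radial glia and 28.5 to 93.8 CPM for neurons. Erythrocyte genes reached 2.72 CPM at most. Of the 12 marker sums 7 were highest in replicate 2 on the CPM scale, as RBP4 was: those of lymphatic endothelium, choroid plexus and ependyma, radial glia, neurons, oligodendrocytes, blood endothelium, and pericytes and smooth muscle. The choroid plexus and ependymal sum was 62.9, 94.0 and 65.2 CPM in replicates 1, 2 and 3. Of all 7111 tested genes, 39.7% were highest in replicate 2, a share of single genes and not of sums. Replicate 2 had the smallest TMM factor, 0.796 against 1.05 and 1.20, which raises its CPM relative to its reads. In reads, RBP4 was highest in replicate 3, with 42711, and so was MRC1, most of the lymphatic sum, with 154604. The order of the sums in reads was not examined. The part of the listed cell types in the level of RBP4 was not tested.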

How the data were processed

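The authors deposited raw counts, whole-number reads per Ensembl gene ID, and a YuGene score per gene and library. Per the submitters' processing notes, the build was GRCz10, with bcl2fastq and R 3.2.2. The sources used here do not name the aligner, the counter or the strand setting. Columns were matched to samples by replicate number. A symbol was found for 26269 of 32105 gene IDs; listed symbols were matched exactly or, failing that, with a final a or b dropped and every copy kept, which placed 70 of 74 retinoid symbols. Protein and promoter sequences and gene lengths were not used here. The members and lists were chosen with earlier results of these data known.

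CPM used TMM factors of 1.05, 0.796 and 1.20 (edgeR 4.0.16). Genes reaching 10 reads in 2 or more libraries were fitted with edgeR's quasi-likelihood model, and the offset was the logged median count of a library. The test of the intercept was written out from the fit, because the tool's own function does not take a single-column design. Tested on simulated counts of 7111 genes, it recovered 95% of 100 genes set at 16 times the median and called 2% of 100 set at it. Recovery of genes set at a smaller excess or below the median was not measured. The genes named were the 8 members, called genes and the 3 highest of the wider list, and the 5 nearest to RBP4, with markers mostly given as sums. Some genes of the list are not reported here by name. Others were chosen after their values were seen. Alternatives used DESeq2 1.42.0 and limma 3.58.1. Amplified reads are not independent molecules, and the floor covers counting error only. The labels do not say whether the pools were sorted separately, so p-values measure only the spread between these libraries.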

Additional observations from a re-analysis of the deposited data

How the results depend on the processing

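The RBP4 level was 1557 CPM when malat1 and mitochondrially encoded genes were left out of the library size, and moved by less than 1 SD under the other scalings and without each library (948 to 1128 CPM). Its percentile was 98.2 among genes with 10 reads in all 3 libraries, 99.6 with no filter and 99.1 on YuGene scores. Leaving out 1 library put the percentile of RDH10 ENSDARG00000058730 between 7.64 and 70.0, and 7.64 was the value without replicate 3. Of the wider list, 0 of 7 tested genes stood above the median gene with 10 reads required in all 3 libraries, since RXRA then missed the threshold. Of all 4108 genes in that fit 25.3% stood above. RXRA was called in the other 8 alternatives, with adjusted p from 4.77e-07 to 0.0310, both edgeR. Its log2 ratio was 1.32 to 1.75 when 1 library was left out. Fits without 1 library, and the fit with 10 reads in all 3, took the median of the fewer genes they kept as reference. Below the median gene stood 1 gene, RARG, with limma-trend at a pseudocount of 1 or 0.5, where 14.7% and 12.4% of all genes did. Without each library it was 0 to 1, RARG without replicate 1. Of all genes 6.34%, 8.25% and 4.84% stood below without replicates 1, 2 and 3. With no filter 14 of 48 genes stood below, against 31.5% of all 18455 genes then tested, and the filtered genes' median stayed the reference, because the median count was then 3, 1 and 17 reads. The 5 genes nearest to RBP4 were the same under both alternatives. Ratios between members per coding length were not run, since lengths were not used here. No paired analysis was possible because the libraries form a single group. At this depth, levels under 0.0729 to 0.107 CPM were not detectable.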
